A study of Mus musculus with 9 samples.

Results

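The transcripts of 9 tight junction genes were followed in mouse ear: the claudins Cldn1, Cldn4, Cldn7, Cldn8, Cldn12 and Cldn23, occludin (Ocln), and the scaffolds Tjp1 and Tjp3, which encode ZO-1 and ZO-3. They were taken as a list of symbols, whose Ensembl identifiers were matched through the GENCODE M21 annotation. All 9 were found among the 55401 features of the deposited matrix, and all 9 were among the 21925 genes with enough counts for testing. Expression is given as CPM, for which estimated counts were divided by TMM-scaled library sizes.

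Tight junctions seal the space between neighbouring epithelial cells, and in mouse skin they lie in the granular layer of the epidermis, below the cornified envelope. Claudins are the membrane proteins that form the junction strands and set what passes between cells, occludin is another membrane protein of the strands, and the zonula occludens proteins hold both to the actin cytoskeleton. Mice without claudin-1 die after birth of water loss through the skin, and lower claudin-1 has been described in the skin of people with atopic dermatitis.

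Messenger RNA from ears of C57 mice had been sequenced from 3 libraries per group, 9 in all. The groups were MC903 with paeonol at 200 mg/kg, MC903 alone, and a control that received absolute ethyl alcohol. MC903 is calcipotriol, a vitamin D analogue that is put on mouse skin to model atopic dermatitis, and paeonol is a phenolic compound of peony root bark. Age, sex, and the route and duration of treatment are not given in the labels, and no group with paeonol alone was analysed here, so paeonol was compared only in the presence of MC903. Whether the libraries of a group are from different animals is not in the labels. The p-values therefore measure no more than the spread between these libraries, and that spread may be technical. Ear is a mixed tissue, and in bulk RNA fewer cells of a type and less RNA per cell cannot be told apart.

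Library totals were 54.26 to 57.75 M estimated counts. Keratinocyte markers were present in every library. Tight junctions lie in the granular layer, whereas the 10 suprabasal and granular markers also cover other suprabasal cells. Krt2, Krt10 and Krt1 held most of the summed level of these 10 in every group. That sum was 48750 to 57410 CPM with MC903 and paeonol, 8427 to 20620 CPM with MC903 alone and 11400 to 16320 CPM in controls. For 7 basal markers the sums were 20400 to 21590, 20820 to 21970 and 15420 to 17240 CPM in the same order. Of the 8 pan-epithelial genes (Cdh1, Esrp1, Esrp2, Rab25, Ap1m2, Perp, Jup, Dsp), 7 were higher and 0 lower in MC903 than in control ears, with sums of 5343 to 6523 CPM and 3795 to 4767 CPM. With MC903 and paeonol the sum was 7569 to 8412 CPM. There 4 of the 8 (Esrp1, Perp, Jup and Dsp) were higher than with MC903 alone, and 7 were higher than in controls, with 0 lower in both comparisons. Because of these shifts each member was also measured on a scale set by these 8 genes, named here the pan-epithelial scale. On that scale the median log2 change over all genes was -0.60 for MC903 against control, -0.21 for MC903 with paeonol against MC903, and -0.83 for MC903 with paeonol against control.

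In ears given MC903, Tjp3, Cldn8, Cldn23, Ocln and Cldn1 were lower than in control ears, and Cldn4, Cldn12 and Tjp1 were higher on the TMM scale, but none of these 3 was called higher on the pan-epithelial scale. With paeonol added, Cldn23, Tjp3, Ocln, Cldn1 and Cldn8 were higher than with MC903 alone, by 1.99 to 4.48 times. Cldn8 then still lay below the control ears. Cldn1 was called higher than in control ears on the TMM scale and lower on the pan-epithelial scale. Tests were edgeR quasi-likelihood F tests over all 21925 genes, two-sided, with Benjamini-Hochberg adjustment and a threshold of 0.05 for a call, and log2 changes are given with their standard error (SE).

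Cldn1, the claudin on which the water barrier of mouse skin depends, was at 212, 222 and 243 CPM with MC903 and paeonol, at 114, 105 and 120.2 CPM with MC903 alone, and at 172, 149 and 147 CPM in controls. The 3 groups did not overlap, with the paeonol libraries highest and the MC903 libraries lowest. The log2 change was -0.46 ± 0.08 for MC903 against control (edgeR adjusted p = 0.000596). For MC903 with paeonol against MC903 it was 1.00 ± 0.08 (edgeR adjusted p = 1.1e-05). Against control, the change with MC903 and paeonol was 0.53 ± 0.08 (edgeR adjusted p = 0.000572). On the pan-epithelial scale it was -0.26 and called lower (edgeR adjusted p = 0.0318), a value 0.573 above the median of all genes there.

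Cldn4, which in mouse and human epidermis is found in the granular layer, was at 115, 117 and 148 CPM with MC903 and paeonol, at 86.1, 83.9 and 97.5 CPM with MC903 alone, and at 59.4, 49.5 and 36.0 CPM in controls. Unlike Cldn1, it stood lowest in the controls, and again no 2 groups overlapped. It was higher in MC903 than in control ears by 0.89 ± 0.18 on the log2 scale (edgeR adjusted p = 0.00284), and this call was lost on the pan-epithelial scale, with a change of 0.32 and an adjusted p of 0.0912. For MC903 with paeonol against MC903 the log2 difference was 0.51 ± 0.17, with a 95% interval of 0.11 to 0.90, and edgeR's adjusted p of 0.0574 missed the threshold. It passed in 7 of 18 alternative fits, where the adjusted p lay between 0.00727 and 0.181. Against control, MC903 with paeonol was higher by 1.39 ± 0.18 (edgeR adjusted p = 0.000569).

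Cldn8, a claudin best known from the kidney tubule, was a low transcript at 3.18, 2.86 and 2.95 CPM with MC903 and paeonol, at 1.39, 1.77 and 1.36 CPM with MC903 alone, and at 6.71, 7.27 and 6.22 CPM in controls. The groups did not overlap, and the paeonol libraries lay between the other two. Its log2 change in MC903 against control ears, -2.16 ± 0.19, passed the test (edgeR adjusted p = 5e-06). MC903 with paeonol was above MC903 by 0.99 ± 0.19 (edgeR adjusted p = 0.0023) and below control with a log2 change of -1.17 ± 0.19 (edgeR adjusted p = 0.000769).

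Cldn23, whose human counterpart is expressed in skin and gut epithelium, was at 18.7, 15.5 and 19.4 CPM with MC903 and paeonol, at 5.66, 3.20 and 3.10 CPM with MC903 alone, and at 14.3, 8.79 and 7.17 CPM in controls. All paeonol libraries were above all others, and library 1 was the highest within both the MC903 and the control group. MC903 with paeonol was above MC903 by 2.17 ± 0.30 on the log2 scale, the widest such gap among the 9 members (edgeR adjusted p = 0.000503). MC903 was below control with a log2 change of -1.34 ± 0.30 (edgeR adjusted p = 0.00386). Between MC903 with paeonol and control the difference of 0.82 ± 0.29 had an edgeR adjusted p of 0.0532, and without control library 1 it was 1.16 with an adjusted p of 0.00772.

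Cldn12, a claudin that lacks the usual scaffold-binding end, was at 41.0, 43.6 and 47.8 CPM with MC903 and paeonol, at 44.5, 33.4 and 43.6 CPM with MC903 alone, and at 29.6, 29.4 and 29.4 CPM in controls. Both treated groups lay above the controls and overlapped each other. The log2 change was 0.46 ± 0.11 for MC903 against control (edgeR adjusted p = 0.00389), but 0.27 on library totals alone and -0.13 on the pan-epithelial scale, 0.47 above the median there. For MC903 with paeonol against control it was 0.58 ± 0.11 (edgeR adjusted p = 0.00177), but -0.22 on the pan-epithelial scale, 0.616 above the median there. MC903 with paeonol and MC903 differed by 0.12 ± 0.11, with a 95% interval of -0.11 to 0.36.

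Cldn7, a claudin of many simple epithelia, was at the limit of detection. It had 12, 0 and 8 estimated counts with MC903 and paeonol, 14, 3 and 0 with MC903 alone, and 17, 24 and 7 in controls. Among low values in the matrix the value 4 was more frequent than its neighbours, so a floor of 12 counts per library was used, and most of these counts are at or under it. All groups overlapped, no comparison was called, and the 95% interval for MC903 against control ran from -4.09 to 1.59 on the log2 scale, so a difference in either direction was not detectable at this depth.

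Ocln, which encodes occludin, was at 18.4, 20.3 and 25.9 CPM with MC903 and paeonol, at 10.8, 4.97 and 5.85 CPM with MC903 alone, and at 19.0, 16.4 and 12.4 CPM in controls. The MC903 libraries were below all others, and the paeonol and control libraries overlapped. It was lower in MC903 than in control ears, with a log2 change of -1.15 ± 0.29 (edgeR adjusted p = 0.00912). MC903 with paeonol was above MC903 by 1.59 ± 0.29 (edgeR adjusted p = 0.00305). Against control, MC903 with paeonol differed by 0.44 ± 0.28, with a 95% interval of -0.20 to 1.07 (edgeR adjusted p = 0.29).

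Tjp3, which encodes the epithelial scaffold ZO-3, was at 45.0, 42.3 and 34.7 CPM with MC903 and paeonol, at 12.8, 8.37 and 8.77 CPM with MC903 alone, and at 47.8, 37.9 and 42.9 CPM in controls. The MC903 libraries were far below the rest, and the other two groups overlapped. MC903 was below control with a log2 change of -2.10 ± 0.17 (edgeR adjusted p = 4e-06). MC903 with paeonol was above MC903 by 2.03 ± 0.17 (edgeR adjusted p = 2.1e-05), and differed from control by -0.08 ± 0.16, with a 95% interval of -0.43 to 0.28. On the pan-epithelial scale that last difference was -0.86 with an adjusted p of 6.66e-05, which is -0.033 from the median of all genes there. Tjp3 shares 40 exon bases with Apba3 on the opposite strand, and since the sources used here do not state the strand setting of the counting, its counts may hold reads of that gene. Apba3 stood at 31.4 to 40.1 CPM with MC903 and paeonol, 42.8 to 51.4 CPM with MC903 alone and 29.1 to 30.9 CPM in controls, so it was highest where Tjp3 was lowest.

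Tjp1, which encodes ZO-1 and is also expressed outside epithelia, varied least of the members over the 9 libraries. It was at 85.4, 87.8 and 93.3 CPM with MC903 and paeonol, at 99.95, 92.7 and 84.5 CPM with MC903 alone, and at 80.4, 76.2 and 76.3 CPM in controls. Both treated groups lay above the controls and overlapped each other. The log2 change for MC903 against control was 0.25 ± 0.07 (edgeR adjusted p = 0.0116), but 0.06 on library totals alone. On the pan-epithelial scale the change was -0.34 (edgeR adjusted p = 0.00502), 0.262 above the median there. Without MC903 library 1, on the TMM scale, it was 0.19 and the adjusted p was 0.0512. MC903 with paeonol differed from MC903 by -0.06 ± 0.07, with a 95% interval of -0.21 to 0.10, and by -0.27 with an adjusted p of 0.0375 on the pan-epithelial scale. Against control it differed by 0.19 ± 0.07, an edgeR adjusted p of 0.0559, and by -0.60 on the pan-epithelial scale, with an adjusted p of 3.69e-05.

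**Figure D1:**
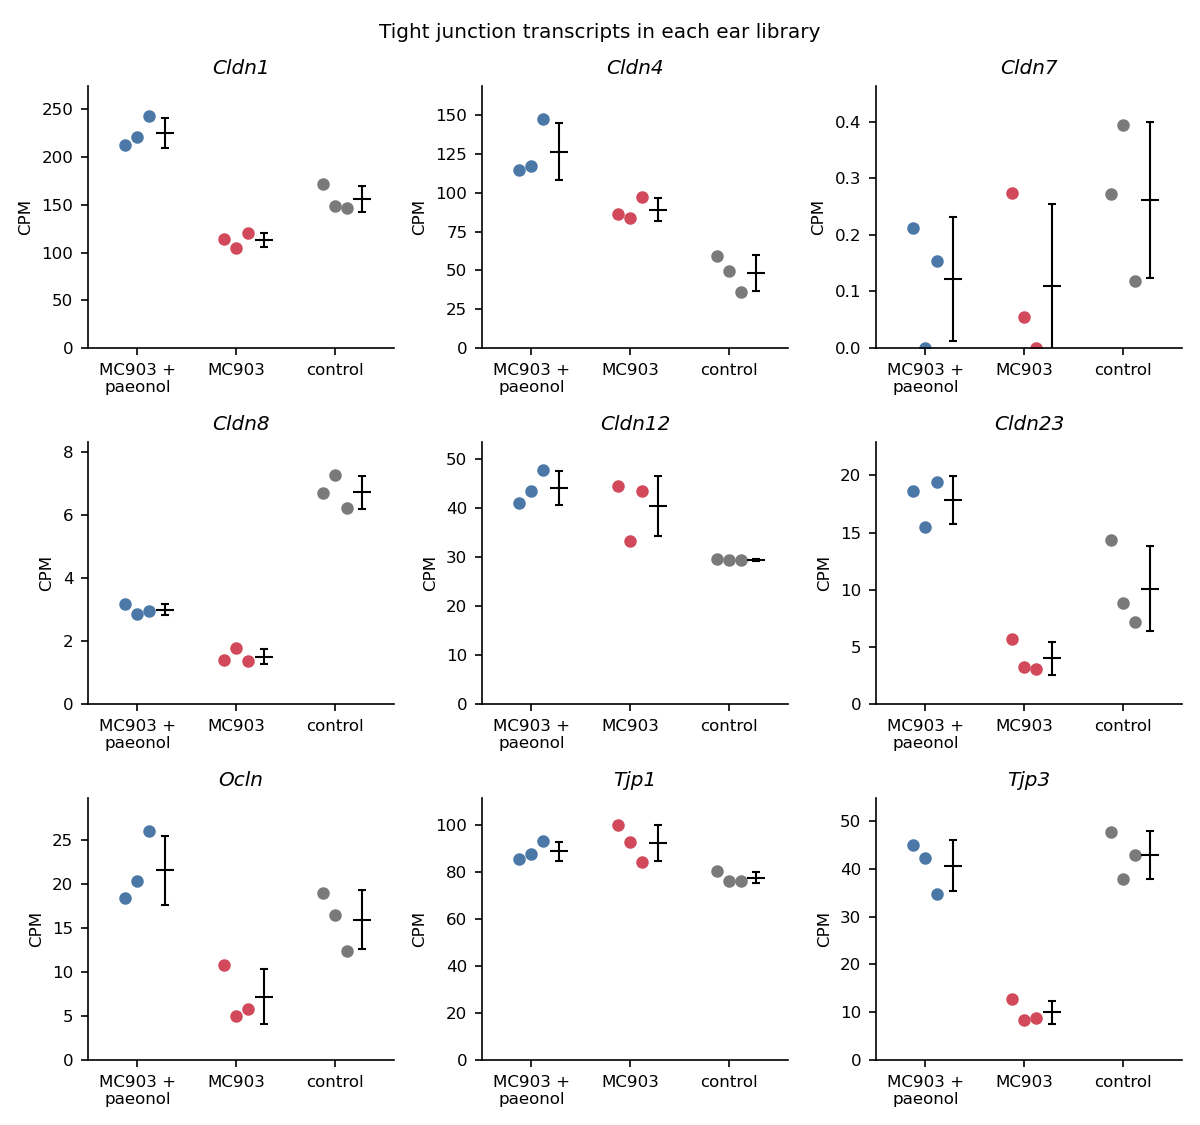
Expression of the 9 tight junction genes in CPM (linear vertical axes from 0, a scale of its own for each gene), with 1 point per library and a mean with SD bars of n = 3 libraries per group. Tjp3 is at 8.37 to 12.8 CPM in the MC903 ears, against 34.7 to 45.0 CPM with paeonol added and 37.9 to 47.8 CPM in the controls, while Cldn4 is lowest in the controls.

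The genes lie apart in the GRCm38 genome. On the minus strand lie Cldn1 (chr16:26356642-26371841), Cldn8 (chr16:88560828-88563183), Cldn4 (chr5:134945119-134946934), Cldn12 (chr5:5489537-5514958), Cldn23 (chr8:35824712-35826559), Ocln (chr13:100496507-100552718), Tjp1 (chr7:65296165-65527781) and Tjp3 (chr10:81273207-81291581). Cldn7 (chr11:69964779-69967885) lies on the plus strand. The 250 bases before the start of the transcript are shown for Ocln and Tjp3, whose levels in MC903 ears lay below both other groups, and for Cldn4, which was higher in MC903 than in control ears on the TMM scale. They come from RefSeq on GRCm38.p6, which had such a window for 7 of the 9 members, and are written 5′ to 3′ on the strand of the gene. Capitals mark matches, on either strand, to CAGGTG (the E-box bound by Snail family repressors), TGANTCA (the AP-1 site), AGGTCA (the half-site of nuclear receptors, the vitamin D receptor among them) and GGGCGG (the GC box). The windows are chr5:134946935-134947184 for Cldn4, chr13:100552719-100552968 for Ocln and chr10:81291582-81291831 for Tjp3, all upstream of the annotated exons on the minus strand.
Cldn4: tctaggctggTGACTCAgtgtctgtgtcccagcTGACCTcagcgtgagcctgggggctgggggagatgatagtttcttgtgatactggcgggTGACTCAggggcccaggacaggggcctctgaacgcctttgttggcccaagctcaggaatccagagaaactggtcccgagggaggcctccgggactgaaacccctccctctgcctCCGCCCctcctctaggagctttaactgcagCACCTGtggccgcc
Ocln: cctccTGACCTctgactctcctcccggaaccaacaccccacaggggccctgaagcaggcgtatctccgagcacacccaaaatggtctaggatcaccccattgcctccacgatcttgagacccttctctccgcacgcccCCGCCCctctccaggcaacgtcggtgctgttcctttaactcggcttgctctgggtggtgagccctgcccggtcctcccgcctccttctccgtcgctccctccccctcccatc
Tjp3: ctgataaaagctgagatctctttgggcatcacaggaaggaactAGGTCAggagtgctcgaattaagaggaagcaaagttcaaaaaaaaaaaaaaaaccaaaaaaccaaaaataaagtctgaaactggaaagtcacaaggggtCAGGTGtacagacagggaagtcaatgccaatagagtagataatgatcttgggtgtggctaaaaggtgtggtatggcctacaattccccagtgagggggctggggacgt
The Cldn4 window held 2 AP-1 matches, at 240 to 234 and at 158 to 152 bases before the start, and among all 27025 RefSeq mouse windows of this length 6.85% held at least 1. An E-box was found in Cldn4 at 14 to 9 bases and in Tjp3 at 108 to 103 bases before the start, against 17.1% of all windows. The nuclear receptor half-site was found in 4 of the 7 members, Cldn4, Cldn7, Ocln and Tjp3, against 13.8% of all windows. The GC box was found in Cldn1, Cldn4, Ocln and Tjp1, against 33.0% of all windows. Neither the grainyhead letters AACCGGTT (0.126% of all windows) nor the NF-kB motif (17.4%) was in any of the 7 windows. None of the matches in the 7 windows overlapped another, and a match of letters is not a site in use.

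In MC903 against control, 8 of the 9 members were called, where 46.8% of all tested genes were. Of these, 3 were higher, against 23% of all genes, and 5 were lower, against 23.8%. In MC903 with paeonol against MC903, 5 members were called, all of them higher, where 29.7% of all genes were called and 15.3% were called higher. In MC903 with paeonol against control, 4 members were called, where 30.9% of all genes were: 3 were higher, against 16.3%, and 1 was lower, against 14.5%. Groups were without overlap for 8, 6 and 6 of the 9 members in these comparisons, against 58.1%, 43.9% and 46.4% of all genes. The median log2 change of the members was -1.15, 0.99 and 0.44 in the same order, against -0.02, 0.00 and -0.03 for all genes. On the pan-epithelial scale 0 members were called higher and 6 lower in MC903 than in control, 5 higher and 1 lower with paeonol added than with MC903, and 1 higher and 4 lower with paeonol added than in control. That scale moves genes down as a whole: of all genes called on it, 10.4%, 26% and 2.76% were higher in the same order. In the last comparison it called 14805 of the 21925 genes, so 4 lower members there are not a trait of the set.

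The 3 comparisons use the same libraries, so a change in one direction against control and in the other against MC903 both rest on the MC903 libraries. Side by side, the log2 changes of MC903 against control and of MC903 with paeonol against MC903 were -2.10 and 2.03 for Tjp3, -1.34 and 2.17 for Cldn23, -1.15 and 1.59 for Ocln, -0.46 and 1.00 for Cldn1, and -2.16 and 0.99 for Cldn8. On the pan-epithelial scale these pairs were -2.69 and 1.83 for Tjp3, -1.92 and 1.98 for Cldn23, -1.75 and 1.40 for Ocln, -1.04 and 0.78 for Cldn1, and -2.74 and 0.77 for Cldn8. The second change of Cldn8 was the smaller on both scales, while that of Cldn1 and Ocln was the greater on the TMM scale and the smaller on the pan-epithelial scale.

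**Figure D2:**
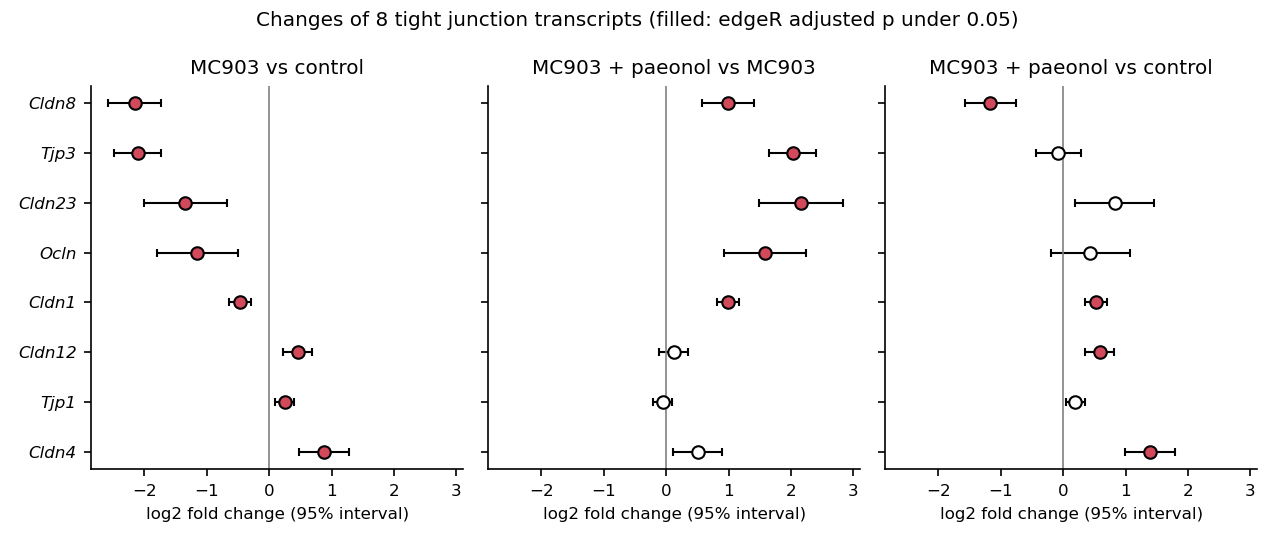
Log2 change of 8 of the genes in the 3 comparisons (Cldn7, at the limit of detection, is not drawn), as the estimate with its 95% interval (not adjusted for the number of genes), with filled symbols for an edgeR adjusted p under 0.05. Tjp3, Cldn23, Ocln, Cldn1 and Cldn8 lie below 0 for MC903 against control and above 0 for MC903 with paeonol against MC903. The higher values of Cldn12 and Tjp1 against control, and of Cldn1 with paeonol against control, turn below 0 on the pan-epithelial scale.

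Divided by exon length, levels can be set side by side between genes. Cldn4 and Cldn1 were the 2 most abundant members in all 3 groups. Cldn4 was at 69.8 ± 10.2 CPM per kilobase with MC903 and paeonol, at 49.1 ± 4.01 with MC903 alone and at 26.6 ± 6.46 in controls (SD, n = 3 libraries each). Cldn1 was at 46.6 ± 3.21, 23.4 ± 1.55 and 32.2 ± 2.83 CPM per kilobase in the same groups. Cldn4 was above Cldn1 in every library of both treated groups and below it in every control library, where the ranges of the 2 genes overlapped. Tjp1, Tjp3, Cldn12 and Cldn23 followed, at 9.67 to 11.4 CPM per kilobase on average with MC903 and paeonol and at 5.46 to 11.5 in controls. In MC903 ears Tjp3 and Cldn23 stood at 2.69 ± 0.660 and 2.16 ± 0.783 CPM per kilobase, apart from Tjp1 at 11.8 ± 0.992 and Cldn12 at 9.57 ± 1.46. Ocln averaged 5.10, 1.70 and 3.77 CPM per kilobase with MC903 and paeonol, with MC903 alone and in controls. Cldn8 averaged 1.27, 0.640 and 2.86 CPM per kilobase, and Cldn7 was lowest at 0.0625, 0.0564 and 0.134.

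The claudin transcripts as a whole were summed over 23 claudin genes, 6 of them members, as CPM per kilobase. The sum was 150.2, 150.1 and 170 with MC903 and paeonol, 106, 98.5 and 112 with MC903 alone, and 114, 106 and 90.4 in controls. The MC903 and control libraries overlapped, and the paeonol libraries lay above both. Within the sum, Cldn4 held 44.4% ± 3.20 with MC903 and paeonol, 46.5% ± 1.64 with MC903 alone and 25.4% ± 3.40 in controls. Cldn1 held 29.7% ± 0.666, 22.1% ± 0.0621 and 31.2% ± 2.25 in the same groups. In MC903 ears, then, a claudin sum that overlapped that of controls held more Cldn4 and less Cldn1 in every library. Cldn5, the claudin of vascular endothelium, held 8.06%, 11.8% and 18.5%. Cldn2 and Cldn15, which form pores in gut and kidney epithelia, held 2.24% and 2.11% in MC903 ears and under 1% in both other groups.

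**Figure D3:**
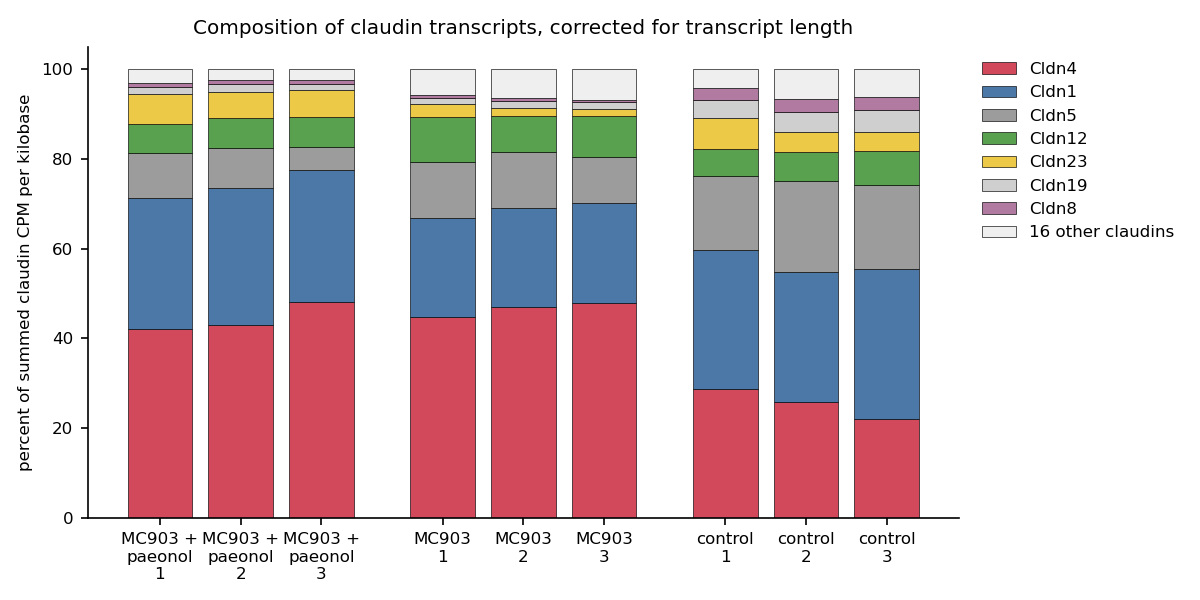
Share in percent of the summed per-length claudin transcripts held by each claudin, with 1 stacked bar per library (left to right MC903 with paeonol, MC903, control) and 16 low claudins drawn together. Cldn4 holds 42.1% to 48.0% of the sum in the treated libraries, against 21.9% to 28.7% in the controls.

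Ratios within a library do not depend on how libraries are scaled. The ratio of Cldn4 to Cldn1 counts was 0.54, 0.529 and 0.61 with MC903 and paeonol, 0.756, 0.797 and 0.811 with MC903 alone, and 0.346, 0.332 and 0.245 in controls. No 2 groups overlapped. The log2 ratio differed by 1.37 between MC903 and control, by -0.50 between MC903 with paeonol and MC903, and by 0.88 between MC903 with paeonol and control. Each difference had a two-sided exact permutation p of 0.1, the smallest that 3 against 3 libraries allow.

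The ratio of Tjp3 to Tjp1 counts was 0.526, 0.482 and 0.372 with MC903 and paeonol, 0.128, 0.0903 and 0.104 with MC903 alone, and 0.595, 0.498 and 0.562 in controls. The MC903 libraries lay below all others, with log2 differences of -2.37 between MC903 and control and 2.10 between MC903 with paeonol and MC903 (exact permutation p of 0.1 for both). MC903 with paeonol and control overlapped and differed by -0.27 (exact permutation p of 0.2). The ratio of Cldn8 to Cldn1 was 0.015, 0.0129 and 0.0122 with MC903 and paeonol, 0.0122, 0.0169 and 0.0113 with MC903 alone, and 0.0391, 0.0487 and 0.0424 in controls. Both treated groups lay below the controls, with log2 differences of -1.71 for MC903 and -1.70 for MC903 with paeonol (exact permutation p of 0.1 for both), and overlapped each other. For Ocln to Cldn1 all 3 pairs of groups overlapped, with exact permutation p of 0.2 to 0.6. These were 12 tests over 4 ratios, and none could fall under 0.05: the Benjamini-Hochberg value of a p of 0.1 over the 12 was 0.171.

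**Figure D4:**
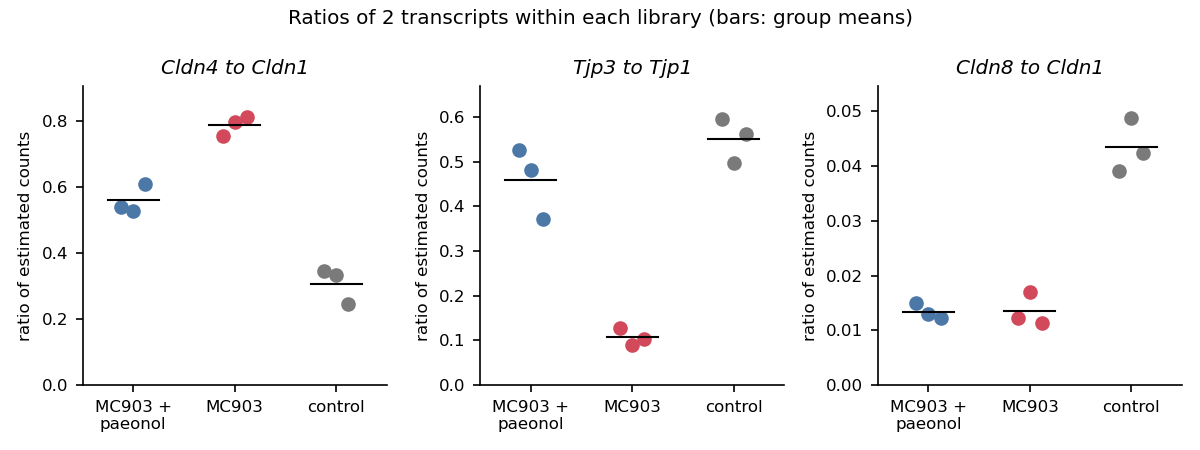
Ratios of estimated counts between 3 pairs of members within each library, with 1 point per library and a bar for the group mean (linear axes from 0). The Tjp3 to Tjp1 ratio lies between 0.0903 and 0.128 in the MC903 ears, against 0.372 to 0.526 with paeonol added and 0.498 to 0.595 in the controls.

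For each member the 2 genes of most similar profile were sought among the 12388 genes whose mean log2 CPM was 2 or more. Likeness was the root mean square difference between log2 CPM profiles over the 9 libraries, each centred on its own mean. Nearest to Cldn1 were Cxadr (0.0791) and Gramd1c (0.0997), set against a spread of 0.416 for Cldn1 itself. Cxadr encodes the coxsackievirus and adenovirus receptor, also a tight junction membrane protein. Nearest to Cldn4 were Spink5 (0.106), which encodes an epidermal protease inhibitor, and Rps6ka6 (0.128). Nearest to Tjp3 were Cttnbp2 (0.0976) and Gpld1 (0.103), and nearest to Ocln were Atp6v1c2 (0.163) and Nccrp1 (0.207). Cldn23 was nearest to Slc46a2 (0.168) and Fgf22 (0.177). The nearest genes to Cldn8 were Car3 (0.115), a carbonic anhydrase abundant in fat and muscle, and Slc22a17 (0.132). Cldn12 was nearest to Dcun1d3 (0.0734) and Dync1li1 (0.0803), and Tjp1 to Scaf11 (0.0401) and Ubap2l (0.0409). For Cldn7 the nearest genes were at 0.859 or more, so none resembled its profile closely.

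Car3 was at a mean of 165 CPM with MC903 and paeonol, 88.6 CPM with MC903 alone and 377 CPM in controls, the same order as Cldn8. The summed markers of sebaceous gland, Schwann cells and fibroblasts stood in this order too, and those of muscle and fat were highest in controls. Sebaceous gland markers summed to 3025 to 4203, 635.5 to 1333 and 5536 to 7361 CPM, and Schwann cell markers to 297 to 322, 193 to 202 and 602 to 715 CPM. Fibroblast markers summed to 4062 to 5128, 2730 to 3832 and 8298 to 9080 CPM. Skeletal muscle markers summed to 2159 to 2796, 1791 to 2335 and 3844 to 5675 CPM, and adipocyte markers to 109 to 144, 117 to 157 and 227 to 308 CPM. In MC903 against control, 5 of 7 sebaceous, 5 of 6 Schwann cell, 4 of 6 fibroblast, 7 of 7 muscle and 5 of 5 adipocyte markers were called lower, against 23.8% of all genes. Called higher were 1 fibroblast marker and 0 of the sebaceous, Schwann cell, muscle and adipocyte markers. Their part in the level of Cldn8 was not tested. Salivary gland markers summed to 7.62 to 8.94, 5.58 to 6.63 and 12.5 to 14.01 CPM, also in the order of Cldn8. Of these 5, Amy1 held most of the sum and was called lower in MC903 than in control ears, with a log2 change of -1.30. Bhlha15 went the other way and was called higher, by 3.71, from 0 to 8 estimated counts in controls. Cst10 and Prol1 had no counts in any library.

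Of the 10 suprabasal and granular markers, 5 were called higher and 2 lower in MC903 than in control ears, against 23% and 23.8% of all genes. Their median log2 change was 0.73. The 5 called higher were Casp14, Krt1, Tgm3, Cdsn and Tgm1, with log2 changes of 2.24, 2.03, 2.00, 1.19 and 1.04. The 2 called lower went in the direction of Cldn23, Ocln and Tjp3. These are Lor and Ivl, which encode the cornified envelope proteins loricrin and involucrin. Lor averaged 3440 CPM with MC903 and paeonol, 496 CPM with MC903 alone and 2484 CPM in controls, with log2 changes of -2.33 for MC903 against control and 2.79 with paeonol added. For Ivl these changes were -0.85 and 2.11. Krt2 and Krt10 had the same signs. Their changes of -0.53 and -0.17 in MC903 against control were not called, and those of 2.54 and 2.57 with paeonol added were. Flg, at 0.43 in MC903 against control, was not called there either. With paeonol added, 6 of those 10 markers were called higher than with MC903 and 1 lower, against 15.3% and 14.3% of all genes. MC903 library 1 had the highest suprabasal sum of its group, at 20620 CPM, and also the highest Cldn23, Ocln and Tjp3. The part of these cells in the level of the members was not tested. Without MC903 library 1, MC903 was below control with log2 changes of -1.68 for Cldn23, -1.56 for Ocln and -2.32 for Tjp3. The wound and stress keratins Krt6a, Krt6b, Krt16 and Krt17 summed to 4937 to 9018 CPM with MC903 and paeonol, 20240 to 21920 CPM with MC903 alone and 575.2 to 1267 CPM in controls. Macrophage markers summed to 232 to 345, 749 to 856 and 374 to 399.6 CPM, and hair follicle markers to 33.8 to 76.6, 56.9 to 71.0 and 20.2 to 52.3 CPM, in the same groups.

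The genes described as higher or lower from here on had an edgeR adjusted p under 0.05. Shares of all tested genes called higher and lower were 23% and 23.8% for MC903 against control. They were 15.3% and 14.3% for MC903 with paeonol against MC903, and 16.3% and 14.5% for MC903 with paeonol against control. On the pan-epithelial scale 10.4%, 26% and 2.76% of the called genes were higher in the same order, so calls on it lean to lower over all genes. The share of all tested genes called on it is given only for the last comparison. Counts of list genes called on it are therefore not read as traits of the lists. Of the other claudins, 17 were matched and 8 had enough counts for testing. In MC903 against control, 2 were called higher and 4 lower. Cldn2 was at 1.55, 0.295 and 0.997 CPM with MC903 and paeonol, at 8.18, 6.47 and 9.04 CPM with MC903 alone, and at 1.33, 2.17 and 1.66 CPM in controls. Cldn15 was at 1.31, 0.775 and 0.767 CPM, at 4.21, 4.53 and 5.45 CPM, and at 1.23, 1.43 and 1.301 CPM in the same groups. Both stood apart from the other 2 groups in the MC903 ears and were higher there, with log2 changes of 2.20 and 1.84 against control, and fell by 3.05 and 2.31 with paeonol added. Cldn3, a claudin of many tight epithelia, and Cldn19, known from kidney, eye and Schwann cells, were lower in MC903 than in control ears with log2 changes of -1.70 and -1.50. Cldn3 and Cldn19 were above MC903 by 1.23 and 0.62 with paeonol added. Both calls were lost on the pan-epithelial scale, where 0 of the 8 were called higher and 2 lower. With MC903 and paeonol, Cldn19, Cldn5 and Cldn10 were below control with log2 changes of -0.88, -0.62 and -0.65. Cldn5 and Cldn10 were below control with MC903 alone too, with log2 changes of -0.62 and -0.93. Neither was called between MC903 with paeonol and MC903. Endothelial markers summed to 145 to 207 CPM with MC903 and paeonol, 284 to 317 CPM with MC903 alone and 262 to 305 CPM in controls, and their part in the level of Cldn5 was not tested.

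Among other membrane proteins of the junction, 1 of 10 tested was higher and 5 were lower in MC903 than in control ears, with 0 higher and 9 lower on the pan-epithelial scale, and 3 were higher and 1 lower with paeonol added than with MC903. Marveld2, which encodes tricellulin of the corners where 3 cells meet, was at 23.4, 18.2 and 18.1 CPM with MC903 and paeonol, at 8.22, 8.35 and 6.55 CPM with MC903 alone, and at 27.1, 22.1 and 23.4 CPM in controls. Like Tjp3, it was lowest in MC903 ears, with log2 changes of -1.65 ± 0.14 against control and 1.37 ± 0.14 with paeonol added. Cxadr had changes of -0.52 and 1.07, and F11r, which encodes the adhesion molecule JAM-A, was higher in MC903 than in control ears by 0.75. Jam3 was below control with log2 changes of -0.69 with MC903 and -0.84 with MC903 and paeonol. MC903 with paeonol was above control by 0.56 for Cxadr and 0.59 for F11r, changes that turned to -0.24 and -0.20 on the pan-epithelial scale. Esam, an endothelial adhesion molecule, was lower with paeonol added than with MC903, with a log2 change of -0.77.

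Of 15 further scaffold and signalling genes of the junction, 2 were higher and 7 lower in MC903 than in control ears, with 1 higher and 13 lower on the pan-epithelial scale. The smallest p was that of Arhgef2, which encodes the junction-bound exchange factor GEF-H1: it was at 54.8, 47.7 and 56.96 CPM with MC903 and paeonol, at 100.5, 111 and 119 CPM with MC903 alone, and at 50.8, 60.7 and 58.5 CPM in controls. Its log2 changes were 0.96 ± 0.09 for MC903 against control and -1.05 ± 0.09 with paeonol added. Cgn, which encodes the adaptor cingulin, was at 90.8, 86.5 and 91.5 CPM with MC903 and paeonol, at 54.0, 33.3 and 39.6 CPM with MC903 alone, and at 96.6, 69.2 and 69.4 CPM in controls. It was thus lowest in MC903 ears, and was higher by 1.083 ± 0.19 with paeonol added. Mpdz and Cgnl1 were lower in MC903 than in control ears with log2 changes of -0.74 and -0.71, and Ocel1 was higher by 0.32 with paeonol added than with MC903, a call lost on the pan-epithelial scale. With paeonol and MC903, Mylk and Tjap1 were below control with log2 changes of -0.50 and -0.42, and Ybx3 was above it by 0.43 but at -0.36 on the pan-epithelial scale. Tjap1 was below control with MC903 alone too, with a log2 change of -0.48.

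The claudin partner Epcam, the proteases St14 and Prss8 and their inhibitors Spint1 and Spint2, 5 genes in all, were each higher with paeonol added than with MC903, against 15.3% of all genes, and 3 of the 5 were called higher on the pan-epithelial scale. Epcam, whose protein binds and stabilises claudins in gut epithelium, was at 69.8, 70.2 and 76.9 CPM with MC903 and paeonol, at 21.0, 22.9 and 24.96 CPM with MC903 alone, and at 85.5, 69.5 and 65.9 CPM in controls. The MC903 libraries were below all others, with log2 changes of -1.68 ± 0.10 against control and 1.66 ± 0.10 with paeonol added. With paeonol added, Spint2 was higher by 0.50 and St14 by 0.36 than with MC903, the second call being lost on the pan-epithelial scale. Spint2 was lower in MC903 than in control ears with a log2 change of -0.22, and Spint1 was higher by 0.49 but at -0.090 on the pan-epithelial scale. Against control, MC903 with paeonol was higher by 0.90 for Spint1, by 0.85 for Prss8, and by 0.43 for St14, the last of which turned to -0.36 on the pan-epithelial scale.

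Of 10 polarity genes, 4 were higher and 1 lower in MC903 than in control ears. With MC903 and paeonol, 7 were higher and 0 lower than in control. On the pan-epithelial scale 0 were higher in either comparison, and 4 and 7 were lower. Of all 21925 genes, 14805 were called on that scale in the second comparison, 2.76% of them higher. Crb3, of the apical Crumbs complex, was above control by 0.97 with MC903 and by 0.93 with MC903 and paeonol. For Llgl2 these differences were 0.61 and 0.50, the second of which turned to -0.30 on the pan-epithelial scale, and for Pard3 they were 0.44 and 0.69, which turned to -0.14 and -0.10. Pard6g, Prkcz and Pard3 were higher by 0.44, 0.42 and 0.24 with paeonol added than with MC903, but on the pan-epithelial scale 0 of the 10 were called higher and 1 lower.

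Of 12 transcription factors that act on junction genes, 6 were higher and 2 lower in MC903 than in control ears, but 1 was higher and 8 were lower on the pan-epithelial scale. Ovol1, a zinc-finger repressor expressed in epidermis, was above control by 1.04 ± 0.10 with MC903 and by 1.25 ± 0.10 with MC903 and paeonol, and its relative Ovol2 was lower in MC903 than in control ears with a log2 change of -1.67 ± 0.27. With paeonol added, Ovol2 and the barrier factor Grhl3 were higher than with MC903 by 1.20 and 0.89, and Zeb2, a repressor of epithelial genes, was lower with a log2 change of -0.55. Zeb1 was below control with log2 changes of -0.49 for MC903 and -0.75 for MC903 with paeonol, and Grhl1 was above control by 0.70 with MC903 and paeonol but at -0.091 on the pan-epithelial scale.

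**Figure D5:**
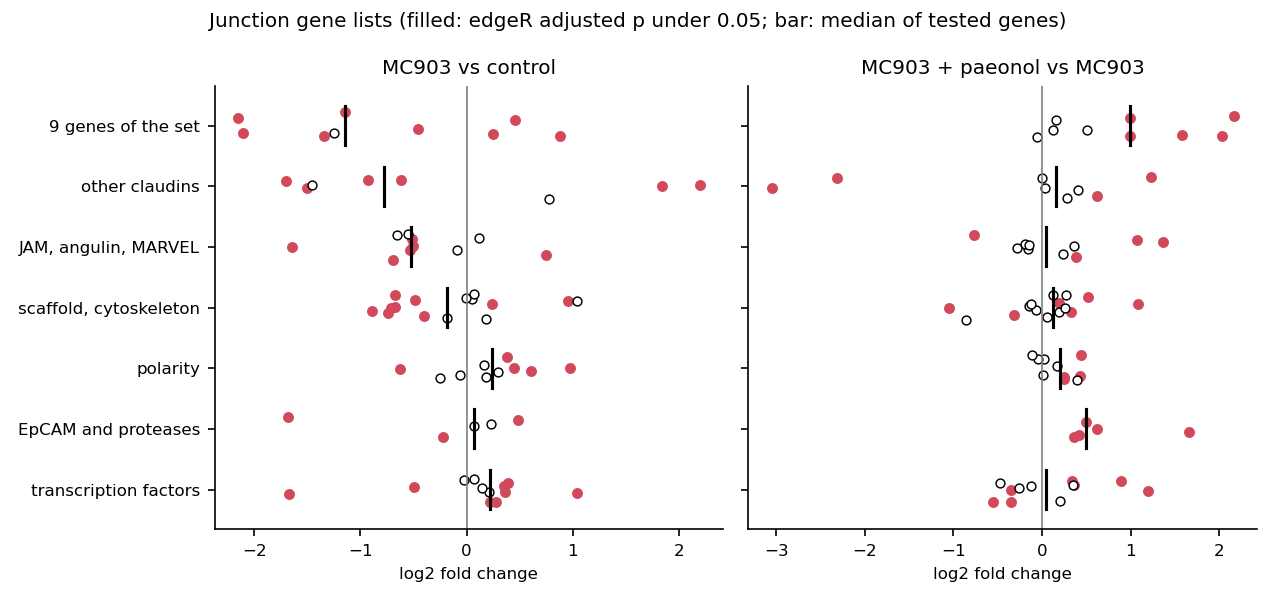
Log2 change of every tested gene of the members and of 6 further junction gene lists, for MC903 against control and for MC903 with paeonol against MC903, with 1 point per gene on the TMM scale, filled for an edgeR adjusted p under 0.05, and a bar for the median of the list. The members have medians of -1.15 and 0.99, and the 5 genes of Epcam and the proteases are all above 0 with paeonol added. On the pan-epithelial scale the polarity list has medians of -0.33 and -0.01 in place of 0.24 and 0.20, where all genes have medians of -0.60 and -0.21.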

How the data were processed

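Poly(A) RNA of ear tissue was sequenced in 9 libraries, 3 per group, with second strands marked by dUTP per the labels' protocols. Cutadapt, HISAT2 2.0.4, StringTie 1.3.4d and the build GRCm38 are named per the submitters' processing notes. What each did, which annotation was used and how strand was treated are not stated in the sources used here. The deposited matrix holds whole numbers per gene, taken as estimated counts that are not scaled between libraries, and all value columns were used (0 left out). The value 4 was 1.90 to 2.23 times as frequent as its neighbours, hence the floor of 12 counts per library, which covers counting error only.

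Features were matched to GENCODE M21 symbols, 55141 of 55401. A count of 10 in enough libraries and a total of 15 were required (filterByExpr of edgeR), which 21925 features met, with 0.04% of counts outside them. One fit of all libraries was made with edgeR 4.0.16 in R 4.3.3, with TMM factors of 0.942 to 1.09 and a robust quasi-likelihood fit, whose common biological coefficient of variation was 0.214. The SE was taken from the log2 change and its F value. Levels per kilobase used the union of exons. Ratios were tested with exact permutation tests in scipy 1.17.1, and the calling was tested on simulated data. Alternatives were DESeq2 1.42.0, its size factors, library totals, scaling to pan-epithelial genes, other filters, fits of 2 groups, counts divided by 4, the replicate number as a block, each library left out, and for levels per kilobase the longest transcript.

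The members, the gene lists and the tests were chosen with earlier results of these data known. The text names all members, in each comparison the 3 called genes of smallest p in each junction list, the other claudins tested, and the 2 nearest profiles per member. Marveld2, Cxadr, Arhgef2, Cgn, Epcam, Cldn2 and Cldn15 were chosen from among these, after their values were seen, to be given by library. The markers Lor, Ivl and Amy1 were also singled out after their values were seen. The other suprabasal and salivary markers called in MC903 against control are named beside them. A gene that the lists had held is not reported here.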

Additional observations from a re-analysis of the deposited data

How the results depend on the processing

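Among called changes of the members, directions turned only on the pan-epithelial scale, where values became -0.13 for Cldn12 and -0.34 for Tjp1 in MC903 against control, and -0.26 for Cldn1 and -0.22 for Cldn12 in MC903 with paeonol against control. Uncalled changes turned there too, to -0.60 for Tjp1 and -0.35 for Ocln with paeonol against control and to -0.088 for Cldn12 with paeonol against MC903, and under other alternatives to 0.0036 for Tjp1 and as low as -0.50 for Cldn7 with paeonol against MC903, and up to 0.025 for Tjp3 with paeonol against control. Of the other named genes these turned there: in MC903 against control Esam -0.47, Ybx3 -0.34, Pard3 -0.14, St14 -0.51, Prss8 -0.34, Spint1 -0.090, Grhl1 -0.22, Grhl3 -0.36 and Zeb2 -0.52; in MC903 with paeonol against MC903 Ybx3 -0.021; in MC903 with paeonol against control F11r -0.20, Cxadr -0.24, Cgn -0.59, Ybx3 -0.36, Pard3 -0.10, Pard6g -0.42, Llgl2 -0.30, St14 -0.36, Spint2 -0.52 and Grhl1 -0.091. That scale called 14805 genes in MC903 with paeonol against control, in place of 6765. Called genes were higher in 10.4%, 26% and 2.76% of cases on it and in 32%, 56.3% and 28.7% on library totals, in place of 49.2%, 51.6% and 52.9%, for MC903 against control, MC903 with paeonol against MC903 and MC903 with paeonol against control. With each library left out in turn, 7 to 8, 5 to 6 and 4 to 6 members were called in these comparisons, and 9012 to 10376, 5065 to 6328 and 5216 to 6710 genes. Deviations of same-numbered libraries from their group means correlated at -0.0113 to 0.04 over all tested genes. That is an average over genes and cannot show whether equal numbers share something in single genes. When that number entered as a block, 8, 5 and 5 members and 10104, 6348 and 6673 genes were called. Cldn23 in MC903 with paeonol against control passed in that fit, with an edgeR adjusted p of 0.00785. With the longest transcript as length, Cldn1 held 30.5%, 25.2% and 34.4% of the members' summed level per kilobase with MC903 and paeonol, with MC903 and in controls, in place of 28.2%, 23.1% and 32.5%. Cldn23 and Tjp1 in MC903 with paeonol against control passed the threshold in 8 and 9 of 18 alternatives, Tjp1 in 1 of them with the opposite sign. Of the members, depth limited Cldn7 alone.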
